A study of Mus musculus with 24 samples.

Results

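The comparison described here set 5 libraries of mouse regulatory T cells (Treg), each treated with a different kappa opioid receptor (KOR) agonist, against the single Treg library treated with the vehicle DMSO. These 6 libraries were chosen by their column names and labels, and they are 6 of the 24 libraries of the study, which also holds 6 libraries of each of 3 other T cell kinds, activated CD8, Th17 and Th1 cells. All cells were wild-type mouse T cells polarised in culture by standard protocols. The agonists, perhydroquinoxaline-derived compounds coded WMS-83, WMS-76, WMS-75, WMS-64 and WMS-200, were given at 0.1 µM, and culture lasted up to 5 days per the labels. The suffixes of the codes differ between sample titles and treatment protocol, so the stem of the code is used. Messenger RNA was enriched by poly(A) selection from column-purified total RNA. A WT number in the column names has no explanation in the labels. DMSO and WMS-200 carry the number 3, the remaining 4 agonists the number 2, so for those 4 the compound and the WT number cannot be told apart. Each treatment had 1 library, and nothing in the labels says how many mice or cultures stand behind it.

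Treg are CD4 T cells that restrain immune responses under the control of the transcription factor Foxp3, and they depend on interleukin-2, which they bind through a high-affinity receptor that contains the Il2ra chain. Signals from the T cell receptor switch on early genes such as those of the Egr family, raise glucose uptake through Slc2a1 and start growth and division. KOR is a receptor coupled to inhibitory G proteins, encoded by Oprk1, and its natural ligands are dynorphins, encoded by Pdyn.

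Total counts ran from 15188284 with DMSO to 18500457 with WMS-76. Foxp3 stood at 162 to 357 CPM (counts corrected for library size, with TMM factors) in the 6 Treg libraries, against means of 7.23 in Th1, 33.96 in Th17 and 3.73 in CD8. Ikzf2, Itgae, Lrrc32 and Ctla4 were also higher than these means in every Treg library. Il2ra and Tnfrsf18 were not. The means of Il2ra were 1269 to 1894 CPM in the other cell types and its highest Treg value was 1376, and Tnfrsf18 had 174 to 281 CPM in Treg against means of 316 in Th1, 240.4 in CD8 and 106 in Th17. The defining genes Ifng, Il17a and Il4 of other helper lineages stayed below 1 CPM in all 6 Treg libraries, and Cd8a lay between 6.30 and 8.32. Summed over their lists, B cell markers ran from 223 to 298 CPM, with Cd79b at most 2.76, myeloid markers from 25.7 to 35.6, with Lyz2 at most 0.736, and NK and gamma delta markers from 1.86 to 3.17. The DMSO library lay inside the range of the agonist libraries for B cell markers, just below it for myeloid markers (25.7 against 26.8 to 35.6) and just above it for NK and gamma delta markers (3.17 against 1.86 to 2.93). Ribosomal protein genes took 1.68% of the counts with DMSO, 2.10% with WMS-200 and 2.25% to 2.90% with the other 4, and 9.76% to 12.9% in the libraries of the other cell types. The part of these shares and marker levels in the results was not tested. In bulk libraries, fewer cells of a type and less RNA per cell cannot be told apart.

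The interleukin-2 receptor chain, an early response gene, a glucose transporter and a myeloid growth factor were all higher with every agonist. Il2ra (ENSMUSG00000026770) had 564 CPM under DMSO, 879 under WMS-200, 1376 under WMS-64, 1210 under WMS-75, 1111 under WMS-76 and 1279 under WMS-83. DMSO was the lowest of the 6 libraries, WMS-200 the next, and the other 4 lay above both. The 5 agonists together were higher by a log2 fold change of 1.05 ± 0.16 (standard error; edgeR quasi-likelihood test, adjusted p = 0.000821). All changes and adjusted p-values given for genes below are log2 fold changes and p-values of this model, for the 5 agonists against DMSO unless stated otherwise. WMS-200 alone against DMSO gave 0.64 ± 0.15, adjusted p = 0.0705, which did not pass the threshold of 0.05, and the other 4 lay above WMS-200 by 0.50 ± 0.12, adjusted p = 0.00753. Egr3 (ENSMUSG00000033730), a transcription factor induced by antigen receptor signals, had 74.9 CPM under DMSO, 115 under WMS-200, 152 under WMS-64, 165 under WMS-75, 169 under WMS-76 and 157 under WMS-83. It showed the same order, with DMSO lowest and WMS-200 between DMSO and the rest, and rose by 1.02 ± 0.16, adjusted p = 0.000906 with the 5 agonists.

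Slc2a1 (ENSMUSG00000028645), which carries glucose across the plasma membrane, had 18.03 CPM under DMSO, 34.5 under WMS-200, 36.1 under WMS-64, 30.1 under WMS-75, 31.5 under WMS-76 and 38.6 under WMS-83. Here WMS-200 fell inside the range of the other 4 and DMSO stood apart below all of them. The rise was 0.92 ± 0.15, adjusted p = 0.00116 over the 5 agonists and 0.94 ± 0.18, adjusted p = 0.0414 for WMS-200 alone, and the other 4 did not pass against WMS-200 (-0.02 ± 0.13, adjusted p = 0.956). Csf2 (ENSMUSG00000018916), which encodes the growth factor GM-CSF, was low, with 4.39 CPM under DMSO, 10.6 under WMS-200, 13.7 under WMS-64, 14.8 under WMS-75, 16.6 under WMS-76 and 12.7 under WMS-83. WMS-200 lay between DMSO and the other 4, nearer to those 4. The rise was 1.64 ± 0.29, adjusted p = 0.00171 over the 5 agonists, and WMS-200 alone did not pass (1.26 ± 0.31, adjusted p = 0.1). In the deposited table, whose genome build is not given in the sources used here, Il2ra lies on chromosome 2 at 11647618 to 11698004, Egr3 on chromosome 14 at 70314652 to 70320063, Slc2a1 on chromosome 4 at 118965908 to 118995180 and Csf2 on chromosome 11 at 54138097 to 54140493.

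**Figure D1:**
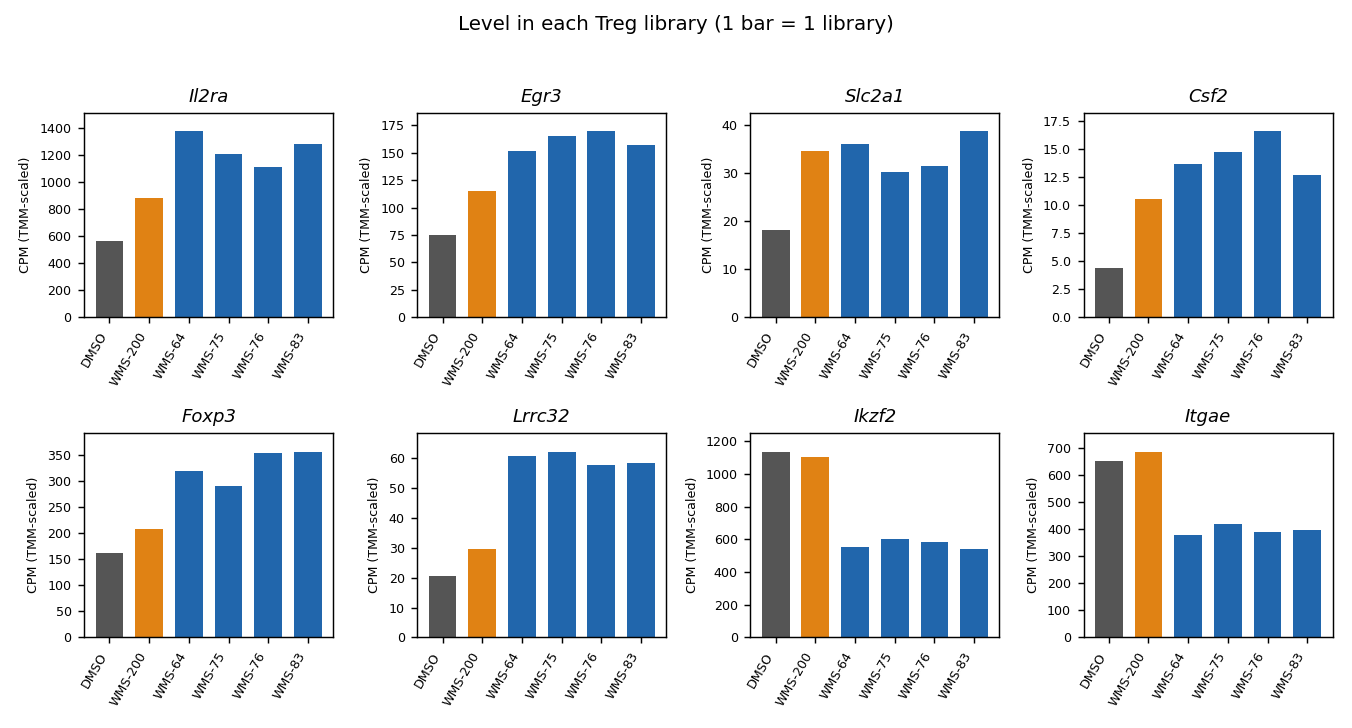
Each bar is the TMM-scaled CPM of 1 library, with DMSO in grey, WMS-200 in orange and the other 4 agonists in blue, and no error bars since each treatment had 1 library. Il2ra, Egr3, Csf2, Foxp3 and Lrrc32 step up from DMSO through WMS-200 to the other 4, Slc2a1 is as high with WMS-200 as with the others, and Ikzf2 and Itgae are high with DMSO and WMS-200 alike.

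The 250 bases before the start of Il2ra and Slc2a1 are shown because these genes head the comparison and place WMS-200 differently, between DMSO and the other 4 for Il2ra and within the range of the other 4 for Slc2a1. They are RefSeq sequences of mouse build GRCm38.p6 on the plus strand, at chr2:11642542-11642791 for Il2ra and chr4:119108495-119108744 for Slc2a1. The gene coordinates of the count table do not match this build, and its own build is not given. Of the 4 genes, 3 were matched, namely Il2ra, Slc2a1 and Csf2. Capitals mark matches on either strand to 6 motifs chosen with these windows in view, namely a kappaB-type GGGANNNCC, the hypoxia-response core ACGTG, an AP-1 type TGANTCA, a CRE TGACGTCA, a STAT-type TTCNNNGAA and an EGR-type GCGTGGGCG. Each printed window held 1 match, so no matches overlapped.
Il2ra: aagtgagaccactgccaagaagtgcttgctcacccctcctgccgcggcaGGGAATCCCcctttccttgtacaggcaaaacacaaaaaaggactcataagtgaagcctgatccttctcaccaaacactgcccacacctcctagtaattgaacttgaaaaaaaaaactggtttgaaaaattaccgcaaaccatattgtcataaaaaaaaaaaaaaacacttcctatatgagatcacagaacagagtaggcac
Slc2a1: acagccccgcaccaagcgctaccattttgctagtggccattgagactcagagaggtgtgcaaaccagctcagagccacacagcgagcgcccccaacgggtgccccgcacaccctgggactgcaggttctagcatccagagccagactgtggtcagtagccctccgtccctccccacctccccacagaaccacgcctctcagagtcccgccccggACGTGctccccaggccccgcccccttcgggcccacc
The Il2ra window held 1 kappaB-type match, GGGAATCCC, and the Slc2a1 window held 1 ACGTG. Among all 32851 promoter windows of the same length, 15.8% held a kappaB-type match and 16.6% an ACGTG, so neither match is rare. The Csf2 window held none of the 6.

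Over all genes, most differences were rises. Of 15885 genes tested, 1401 passed for the 5 agonists against DMSO (8.82%), 1213 higher (7.64%) and 188 lower (1.18%), so 86.6% of the calls were rises. With other scalings and tools the split was less one-sided, 76.2% with RLE size factors, 78.1% with DESeq2 and 66.0% with limma-voom, and it was 74.5% with a minimum count of 50 and 77.3% with protein-coding genes alone. The median log2 fold change of all genes tested was 0.07. For WMS-200 alone against DMSO, 21 genes passed (0.132%), 16 higher (0.101%) and 5 lower (0.0315%), with 1690 at an unadjusted p below 0.05. RLE size factors, limma-voom and an allowance for gene length gave 0 calls there, with 1548, 1611 and 1575 genes at an unadjusted p below 0.05, and DESeq2 gave 59. For the other 4 agonists against DMSO, 2652 passed (16.7%), 2070 higher (13%) and 582 lower (3.66%). These comparisons share the DMSO library. The other 4 against WMS-200, which does not use DMSO, gave 1233 calls (7.76%), 830 higher (5.23%) and 403 lower (2.54%). Leaving out WMS-200 raised the calls for the agonists together from 1401 to 2576, and leaving out WMS-83 lowered them to 930. With the 6 Treg libraries fitted alone, 4 genes passed, and with the WT number as a block, 17 passed.

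Taken singly, the agonist libraries differed in how far they lay from DMSO. With the spread pooled over all libraries of the study, 1 library against 1 gave 2470 genes for WMS-83, 2225 for WMS-64, 1083 for WMS-76 and 908 for WMS-75, as against 21 to 29 for WMS-200 in fits of the same form (a comparison added after seeing the data). Among 10698 genes with a mean log2 CPM of at least 2, also a filter added later, 74 lay past a 2-fold difference from DMSO with WMS-200, 491 with WMS-64, 272 with WMS-75, 277 with WMS-76 and 573 with WMS-83. As shares of these genes the values were 0.692%, 4.59%, 2.54%, 2.59% and 5.36%. Without that filter, 1337 genes were past 2-fold with WMS-200 (8.42%) and 1654 to 2243 with the other 4 (10.4% to 14.1%). By the adjusted p and by the 2-fold count WMS-64 and WMS-83 lay farthest from DMSO and WMS-200 nearest. Past 3-fold without the filter on level, WMS-75 had 469 genes and WMS-200 had 490, so WMS-200 was not the nearest there.

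Among themselves, the 4 agonists with WT number 2 were close to each other at this dose. Between any pair of them, 12 to 59 of the 10698 genes differed past 2-fold, fewest between WMS-64 and WMS-75 and most between WMS-75 and WMS-83. Between WMS-200 and each of them, 192 to 379 genes did, more than the 74 between WMS-200 and DMSO. The standard deviation of the log2 difference over these genes was 0.221 to 0.307 within the 4, 0.356 to 0.431 between WMS-200 and them, and 0.292 between WMS-200 and DMSO. These are values of single libraries without a replicate check, and they do not show that the 4 compounds act alike.

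**Figure D2:**
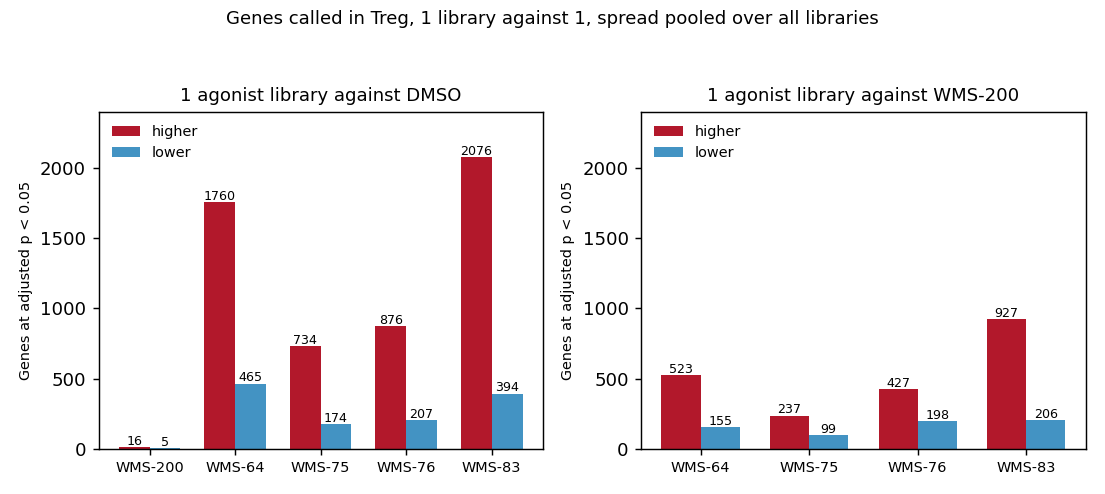
Bars give the number of genes higher (red) or lower (blue) at an adjusted p below 0.05 for 1 agonist library against DMSO (left) and against WMS-200 (right), with the spread pooled over all 24 libraries; the WMS-200 bars come from the fit that holds the other 4 as 1 group. WMS-200 has 16 higher and 5 lower against DMSO, where the other 4 have 734 to 2076 higher and 174 to 465 lower; against WMS-200 the other 4 have 237 to 927 higher.

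WMS-200 was placed for each gene on a line from DMSO to the other 4. Among the 1401 genes called for the 5 agonists, it lay between DMSO and the 4 in 978 (69.8%), within the range of the 4 in 392, beyond them in 26 and at or past DMSO in 5. Of the 978, 546 were nearer to DMSO and 432 nearer to the mean of the 4. On a scale with DMSO at 0 and the mean of the 4 at 1, the median position was 0.567, with quartiles at 0.392 and 0.77. The genes were called with WMS-200 among the agonists, which selects against genes where it sits at DMSO. Among all 15885 genes tested, WMS-200 lay between in 3618 (22.8%), at or past DMSO in 2293, and in 5907 the DMSO library itself was inside the range of the 4. Among the 2652 genes called for the other 4 without WMS-200, the median position was 0.441 and 298 genes had WMS-200 at or past DMSO. Over all 15885 genes tested the median position was 0.448, with wider quartiles at -0.147 and 1.09. A median of 0.441 is therefore not particular to the called genes. The lone DMSO library sets the 0 of this scale for every gene.

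**Figure D3:**
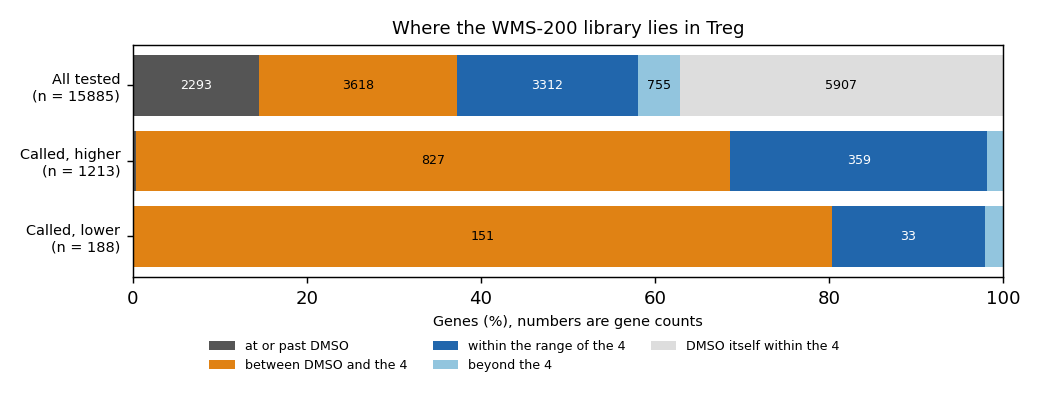
Each bar splits a set of genes by where the WMS-200 library lies, as percent of the set, with the number of genes printed in the segment. Among called genes the segment between DMSO and the other 4 is the widest (827 of the 1213 higher and 151 of the 188 lower), and among all tested genes DMSO is most often inside the range of the 4 (5907).

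Genes of the Treg program did not move as a block. Of 22 members tested, 7 were higher and 0 lower with the 5 agonists (median log2 fold change 0.40, against 0.07 over all genes, of which 7.64% were higher and 1.18% lower). Without the WMS-200 library 11 were higher and 2 lower, where 1986 of all 16116 genes tested in that fit were higher and 590 lower. For the 4 agonists against DMSO the count was 12 higher and 2 lower, where 13% of all genes were higher and 3.66% lower. Foxp3 had 162 CPM under DMSO, 208 under WMS-200, 319.7 under WMS-64, 290.3 under WMS-75, 353 under WMS-76 and 357 under WMS-83. The values stepped up from DMSO through WMS-200 to the other 4, which did not overlap with either. The 5 agonists missed the threshold (0.91 ± 0.29, adjusted p = 0.0542), the 4 against DMSO passed (1.02 ± 0.24, adjusted p = 0.00489), and WMS-200 alone did not (0.36, adjusted p = 0.725). Lrrc32, which anchors latent TGF-beta on the Treg surface, rose by 1.38 ± 0.28, adjusted p = 0.00447, from 20.6 CPM under DMSO, 29.7 under WMS-200 and 57.7 to 62.2 under the other 4. Tnfrsf18, the costimulatory receptor GITR, rose by 0.54, adjusted p = 0.0316.

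Ikzf2 and Itgae went the other way and split by WT number. Ikzf2, the transcription factor Helios, had 1137 CPM under DMSO, 1103 under WMS-200, 553 under WMS-64, 601 under WMS-75, 582 under WMS-76 and 540.3 under WMS-83. DMSO and WMS-200 were almost level, and the other 4 lay far below both, with no overlap. The 5 agonists together did not pass (-0.75, adjusted p = 0.114), while the 4 fell against DMSO (-0.998, adjusted p = 0.000119) and against WMS-200 (-0.95, adjusted p = 0.000417). Itgae, the integrin chain CD103, had 652 CPM under DMSO, 686 under WMS-200 and 379.7 to 418 under the other 4, and fell in the 4 against DMSO (-0.72, adjusted p = 0.00283) and against WMS-200 (-0.79, adjusted p = 0.00264). Ctla4, an inhibitory receptor, had 246 CPM under DMSO, 243 under WMS-200 and 342 to 369.6 under the other 4. It was higher in the 4 than in DMSO (0.53, adjusted p = 0.00882) and than in WMS-200 (0.54, adjusted p = 0.0143), while WMS-200 and DMSO were level. For these 3 genes compound and WT number cannot be told apart.

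Some activation genes passed as higher and none as lower. Of 24 genes of T cell activation and the early response, 11 rose and 0 fell at the threshold (median 0.41). Over all genes tested, 7.64% rose and 1.18% fell. Whatever their call, 15 of the 24 lay above DMSO in all 5 agonist libraries and 3 below it. The shares over all genes tested were 28.7% and 19.7%. Of 18 interleukin-2 and STAT5 targets 8 rose and 0 fell (0.42). Myc, a driver of growth, rose by 0.82 ± 0.14, adjusted p = 0.00171, with 87.6 CPM under DMSO, 115 under WMS-200 and 154 to 171 under the other 4. Irf4, a transcription factor of activated T cells, rose by 0.63, adjusted p = 0.0047, with 248 CPM under DMSO, 297 under WMS-200 and 387 to 432 under the other 4. In both genes WMS-200 sat between DMSO and the others and nearer to DMSO. Socs2, a feedback inhibitor of cytokine signals, had 86.4 CPM under DMSO, 101 under WMS-200 and 229 to 254 under the other 4, so that WMS-200 lay near DMSO and the 4 stood clear of both (1.28, adjusted p = 0.012 for the 5 agonists). Bcl2l1, which encodes the survival protein Bcl-xL, rose by 0.86, adjusted p = 0.00171. Ccnd2, a cyclin of the early cell cycle, had 346 CPM under DMSO, 536 under WMS-200 and 447 to 604 under the other 4 and rose by 0.59, adjusted p = 0.00503, with WMS-200 inside the range of the other 4.

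Of 21 cytokine genes tested, 5 rose and 1 fell, where 7.64% of all genes tested rose and 1.18% fell. The median was 1.11, over a list with many genes of a few reads. The gene that fell was Il6, a proinflammatory cytokine, at 0.634 CPM under DMSO and at most 0.160 under an agonist, chosen after its values were seen. Lta had 63.4 CPM under DMSO, 98.5 under WMS-200 and 130.2 to 159 under the other 4 and rose by 1.12 ± 0.18, adjusted p = 0.00144. Tnf had 38.5 CPM under DMSO, 49.4 under WMS-200 and 67.2 to 95.03 under the other 4 and rose by 1.01, adjusted p = 0.00719. Lif, a cytokine of the interleukin-6 family, rose by 0.74, adjusted p = 0.00533. In all 3 genes WMS-200 lay between DMSO and the other 4. The chemokine receptor Ccr4 had 31.5 CPM under DMSO, 45.9 under WMS-200 and 78.3 to 96.6 under the other 4 and rose by 1.33, adjusted p = 0.00355. Genes of the Th17 program also moved: 6 of 16 rose and 0 fell. Maf, a transcription factor of several T cell subsets, rose by 0.80, adjusted p = 0.00604. Il17a, the signature cytokine of Th17 cells, stayed below 1 CPM in all 6 libraries. Gata3 of the Th2 program had 99.8 CPM under DMSO, 115 under WMS-200 and 102 to 119 under the other 4 and did not pass (0.16, adjusted p = 0.518).

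Metabolic genes moved in part. Over all genes tested, 7.64% rose and 1.18% fell with the 5 agonists. Of 20 glycolysis and glucose uptake genes, 8 rose and 1 fell (median 0.43). Pgk1, a glycolytic kinase, rose by 0.83, adjusted p = 0.00604, with 75.7 CPM under DMSO, 103 under WMS-200 and 125 to 163 under the other 4. The member that fell was Slc2a3, another glucose transporter, with 39.1 CPM under DMSO, 28.7 under WMS-200 and 22.2 to 27.7 under the other 4 (-0.61, adjusted p = 0.00415). Of 15 hypoxia response genes, 0 rose and 3 fell, and the median was 0.18, above the 0.07 of all genes, with 4 members above DMSO and 4 below it in all 5 libraries. Vegfa, which drives vessel growth, had 31.5 CPM under DMSO, 27.98 under WMS-200 and 15.6 to 20.2 under the other 4 (-0.66, adjusted p = 0.0209). Pdk1, a kinase that limits the entry of pyruvate into mitochondria, had 70.4 CPM under DMSO, 59.6 under WMS-200 and 52.3 to 54.8 under the other 4 (-0.35, adjusted p = 0.0407), and Ndrg1 had 25.7 CPM under DMSO, 22.2 under WMS-200 and 16.9 to 18.9 under the other 4 (-0.45, adjusted p = 0.0311). The 3 were chosen after their values were seen. Of 20 nuclear genes of oxidative phosphorylation, 5 rose and 0 fell, among them Atp5b of the ATP synthase (0.64, adjusted p = 0.0102). Of 27 genes of cholesterol and fatty acid synthesis, 9 rose and 0 fell with the 5 agonists. Without the WMS-200 library 16 rose, where 1986 of all 16116 genes tested in that fit rose. In the other 4 against WMS-200, 14 were higher and 0 lower, where 5.23% of all genes tested were higher and 2.54% lower. The median difference from DMSO in this list was 0.06 in WMS-200 and 0.41 to 0.75 in the other 4. Hmgcs1, an early enzyme of cholesterol synthesis, had 67.1 CPM under DMSO, 85.98 under WMS-200, 132 under WMS-64, 107 under WMS-75, 104 under WMS-76 and 139 under WMS-83 (0.76 ± 0.16, adjusted p = 0.00477 for the 5 agonists, and 0.48, adjusted p = 0.0151 for the 4 against WMS-200). WMS-200 was nearer to DMSO, and the 4 lay above both without overlap. Hsd17b7 (0.99, adjusted p = 0.00764) of the same pathway also rose.

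Many genes of ribosome production rose. Of 19 ribosome biogenesis genes, 16 rose and 0 fell, and all 19 lay above DMSO in each of the 5 libraries. Over all genes tested, 7.64% rose and 1.18% fell. The median difference was 0.42 in WMS-200 and 0.45 to 0.71 in the other 4. For the 4 against WMS-200, 1 of the 19 passed, where 7.76% of all genes tested passed. It was Nop56, chosen after its values were seen. Dkc1, a subunit of the pseudouridine synthase complex, had 50.6 CPM under DMSO, 79.9 under WMS-200, 91.8 under WMS-64, 79.3 under WMS-75, 81.3 under WMS-76 and 91.4 under WMS-83 (0.74 ± 0.12, adjusted p = 0.00116). WMS-200 lay within the range of the other 4, and DMSO was lowest. Nolc1, a nucleolar protein, rose by 0.72, adjusted p = 0.00144. Of 83 cytosolic ribosomal protein genes tested, 46 rose and 0 fell (median 0.59), and their share of the counts was lowest with DMSO. These are short genes, and the share of counts in genes over 5000 bases was 61.4% under DMSO, 60.4% under WMS-200 and 56.96% to 59.1% under the other 4. With gene length offsets 29 rose, with RLE size factors 22 and without WMS-83 25, and 0 fell under each (alternatives for this list added after seeing the data). Their many pseudogenes leave single values uncertain. For reference, 28.7% of all genes tested had all 5 agonists above DMSO, against 19 of 19 and 75 of 83 in these lists.

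Of 11 heat shock genes, 8 rose and 0 fell (median 0.77). Of 12 genes of the unfolded protein response, 8 rose and 0 fell (0.54). Over all genes tested, 7.64% rose and 1.18% fell. Hsp90ab1, a cytosolic chaperone, had 932 CPM under DMSO, 1465 under WMS-200, 1812 under WMS-64, 1424 under WMS-75, 1452 under WMS-76 and 1965 under WMS-83 (0.80, adjusted p = 0.00447). Hspa5, the main chaperone of the endoplasmic reticulum, had 154 CPM under DMSO, 223 under WMS-200, 227 under WMS-64, 203 under WMS-75, 216 under WMS-76 and 248 under WMS-83 (0.54, adjusted p = 0.00754). In both genes WMS-200 lay inside the range of the other 4 and DMSO below it. Hsph1 (0.76, adjusted p = 0.00201) and Manf (0.86, adjusted p = 0.00217) rose as well. Hspa1a, an inducible chaperone, had 8.62 CPM under DMSO, 13.3 under WMS-200 and 24.04 to 37.4 under the other 4 and rose by 1.66, adjusted p = 0.0156. It has the near-identical copy Hspa1b, so its reads may be shared. Of 22 genes of the integrated stress response and amino acid supply, 1 rose and 0 fell, no larger a share of rises than over all genes tested. The 1 that rose was the transcription factor Atf3, chosen after its values were seen.

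Most proliferation genes rose, and most were higher in the other 4 than in WMS-200. Of 24, 17 rose and 0 fell with the 5 agonists, where 7.64% of all genes tested rose and 1.18% fell. In the other 4, 24 of 24 were higher than in DMSO (13% of all genes tested were). Against WMS-200, 17 of 24 were higher in the 4 (5.23% of all genes tested were). The median difference from DMSO was 0.19 in WMS-200 and 0.65 to 0.94 in the other 4. Rrm2, a subunit of the enzyme that makes deoxyribonucleotides, had 63.5 CPM under DMSO, 81.6 under WMS-200, 146 under WMS-64, 141 under WMS-75, 136 under WMS-76 and 155 under WMS-83 (1.05 ± 0.21, adjusted p = 0.00476). Mcm5, of the replicative helicase, had 84.3 CPM under DMSO, 109 under WMS-200 and 137 to 181 under the other 4 (0.80, adjusted p = 0.00447). Mki67, the marker of cycling cells, had 768 CPM under DMSO, 789.7 under WMS-200, 1137 under WMS-64, 1086 under WMS-75, 1298 under WMS-76 and 1360 under WMS-83. WMS-200 was level with DMSO and the 4 lay above both. Mki67 did not pass for the 5 agonists (0.56, adjusted p = 0.0848) and passed for the 4 against DMSO (0.67, adjusted p = 0.00422) and against WMS-200 (0.63, adjusted p = 0.014).

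**Figure D4:**
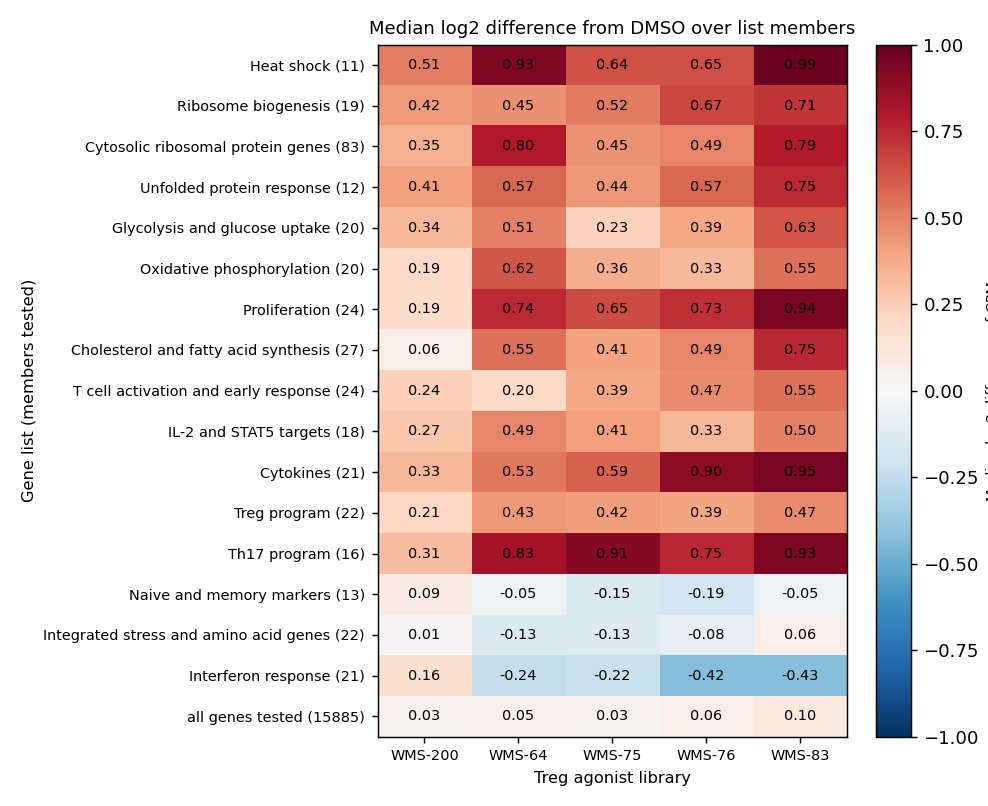
Each cell gives the median log2 difference of CPM from DMSO over the tested members of a list (rows, with their number) in 1 agonist library (columns). Ribosome biogenesis is at 0.42 with WMS-200 against 0.45 to 0.71 in the other 4, and the unfolded protein response at 0.41 against 0.44 to 0.75, whereas cholesterol synthesis and proliferation are at 0.06 and 0.19 with WMS-200 against 0.41 to 0.94 in the other 4.

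Some interferon-induced genes fell, and some were lower in the 4 agonists with WT number 2 than in WMS-200. Of 21 interferon response genes, 1 rose and 4 fell with the 5 agonists, where 7.64% of all genes tested rose and 1.18% fell. In the 4 against WMS-200, 0 were higher and 5 lower, where 5.23% of all genes tested were higher and 2.54% lower. The median difference from DMSO was 0.16 with WMS-200 and -0.43 to -0.22 with the other 4. Gbp4, a guanylate-binding protein, had 466 CPM under DMSO, 379 under WMS-200, 194 under WMS-64, 214 under WMS-75, 226 under WMS-76 and 193 under WMS-83 (-0.95 ± 0.23, adjusted p = 0.0141). WMS-200 was nearer to DMSO, and the 4 lay below both. Gbp7 had 114 CPM under DMSO, 113 under WMS-200 and 47.7 to 61.4 under the other 4 (-0.76, adjusted p = 0.0475), and Igtp, an interferon-induced GTPase, 625 CPM under DMSO, 584 under WMS-200 and 357 to 415 under the other 4 (-0.54, adjusted p = 0.0173). Gbp2 went the other way, with 98.6 CPM under DMSO, 149 under WMS-200 and 120.5 to 176 under the other 4 (0.60, adjusted p = 0.0118). Gbp9 and Gbp10 were among the genes with the largest falls, at 184 CPM under DMSO, 155 under WMS-200 and 65.5 to 87.6 under the other 4 for Gbp9 and 110.1 CPM under DMSO, 87.1 under WMS-200 and 28.9 to 38.1 under the other 4 for Gbp10. The members of this family are close in sequence, so reads may be split among them.

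The largest rises by fold, among called protein-coding genes with a mean log2 CPM of at least 2 and all 5 libraries above DMSO, were in genes of low level in DMSO. C3, a complement protein, had 1.43 CPM under DMSO, 3.49 under WMS-200 and 18.2 to 20.7 under the other 4 (3.50 ± 0.77, adjusted p = 0.0101). Mical2, an actin-oxidising enzyme, had 1.53 CPM under DMSO, 4.35 under WMS-200 and 14.2 to 17.1 under the other 4 (3.11, adjusted p = 0.00355). In both genes WMS-200 lay between DMSO and the other 4. Zfp608 had 4.76 CPM under DMSO, 5.89 under WMS-200 and 21.6 to 25.9 under the other 4, Emp1 2.80 CPM under DMSO, 3.40 under WMS-200 and 11.6 to 14.8 under the other 4 and Fsd1l 21.8 CPM under DMSO, 25.2 under WMS-200 and 63.3 to 104 under the other 4, and in these 3 WMS-200 was near DMSO. By contrast, Snrpg, a spliceosome protein, had 4.12 CPM under DMSO, 16.8 under WMS-200 and 13.97 to 19.7 under the other 4, and Hmgn2-ps 5.29 CPM under DMSO, 18.7 under WMS-200 and 19.5 to 32.7 under the other 4, so WMS-200 was near the others. Both have close copies in the genome, which leaves their values uncertain. The other members of this group by the naming rule were Smpdl3b, Fam20a, Lrrc49, Gcsh and Hspa1a, with log2 fold changes from 1.66 to 1.84.

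Under the same limits on level and direction, the largest falls were smaller. Matk, a kinase that restrains Src family kinases, had 155 CPM under DMSO, 103 under WMS-200, 35.98 under WMS-64, 50.2 under WMS-75, 50.7 under WMS-76 and 55.02 under WMS-83 (-1.39 ± 0.27, adjusted p = 0.00452). WMS-200 lay between DMSO and the other 4. Atp10d, a lipid flippase, fell by 1.04 on the log2 scale, with 93.5 CPM under DMSO, 59.1 under WMS-200 and 39.5 to 45.1 under the other 4 (adjusted p = 0.000821). H2-Q6, a nonclassical class I gene, had 33.9 CPM under DMSO, 12.6 under WMS-200 and 9.85 to 19.7 under the other 4, with WMS-200 inside the range of the 4; it has near copies, so its reads may be shared. Gab3, a docking protein, had 8.25 CPM under DMSO, 3.58 under WMS-200 and 3.52 to 4.25 under the other 4 (-1.10, adjusted p = 0.0152). Zfr2, Ifi209, Lcn10, Bsn, Jag2 and Cage1 had log2 fold changes from -1.17 to -1.08, and DMSO was highest in each. Satb1, a chromatin organiser of naive T cells, had 264 CPM under DMSO, 254 under WMS-200 and 134 to 153 under the other 4 and fell by 0.67 on the log2 scale (adjusted p = 0.0234), with WMS-200 level with DMSO.

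Of the genes called for WMS-200 alone against DMSO, 14 of 21 were also called for the 5 agonists together, which include WMS-200. Lipo3, a member of a lipase family, had 5.18 CPM under DMSO, 14.3 under WMS-200, 16.6 under WMS-64, 12.9 under WMS-75, 11.97 under WMS-76 and 10.9 under WMS-83 (1.47 ± 0.25, adjusted p = 0.0306 for WMS-200 alone). Rrp15, a ribosome biogenesis factor, had 3.91 CPM under DMSO, 9.96 under WMS-200 and 6.77 to 9.48 under the other 4 (1.35, adjusted p = 0.0414). In both genes, and in Slc2a1, all agonists stood together above DMSO. Pus7l, with 5.45 CPM under DMSO, 12.8 under WMS-200 and 7.73 to 8.86 under the other 4, and Erap1, an aminopeptidase that trims antigenic peptides, with 76.5 CPM under DMSO, 115 under WMS-200 and 88.3 to 96.6 under the other 4, were higher with WMS-200 than with any of the other 4 (1.23, adjusted p = 0.0414 for Pus7l and 0.59, adjusted p = 0.046 for Erap1). All 21 adjusted p-values of this comparison were between 0.0306 and 0.0474, close to the threshold.

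Against WMS-200, the other 4 differed most clearly in Kit and Socs2. Kit, a receptor tyrosine kinase of progenitor and mast cells, had 103 CPM under DMSO, 155 under WMS-200, 28.3 under WMS-64, 30.1 under WMS-75, 27.04 under WMS-76 and 30 under WMS-83. WMS-200 was the highest library, DMSO the next, and the 4 were far below both (log2 fold change of the 4 against WMS-200 -2.42 ± 0.17, adjusted p = 2.18e-10, and against DMSO -1.83, adjusted p = 6.47e-08). Gimap7, a GTPase of lymphocytes, had 30.6 CPM under DMSO, 29.3 under WMS-200 and 8.05 to 11.1 under the other 4 (-1.61, adjusted p = 1.18e-06 for the 4 against WMS-200). Emp1, Gbp7 and Gbp9, given above, completed the 6 genes with the smallest p. In each of the 6, DMSO and WMS-200 lay together on one side of the other 4.

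**Figure D5:**
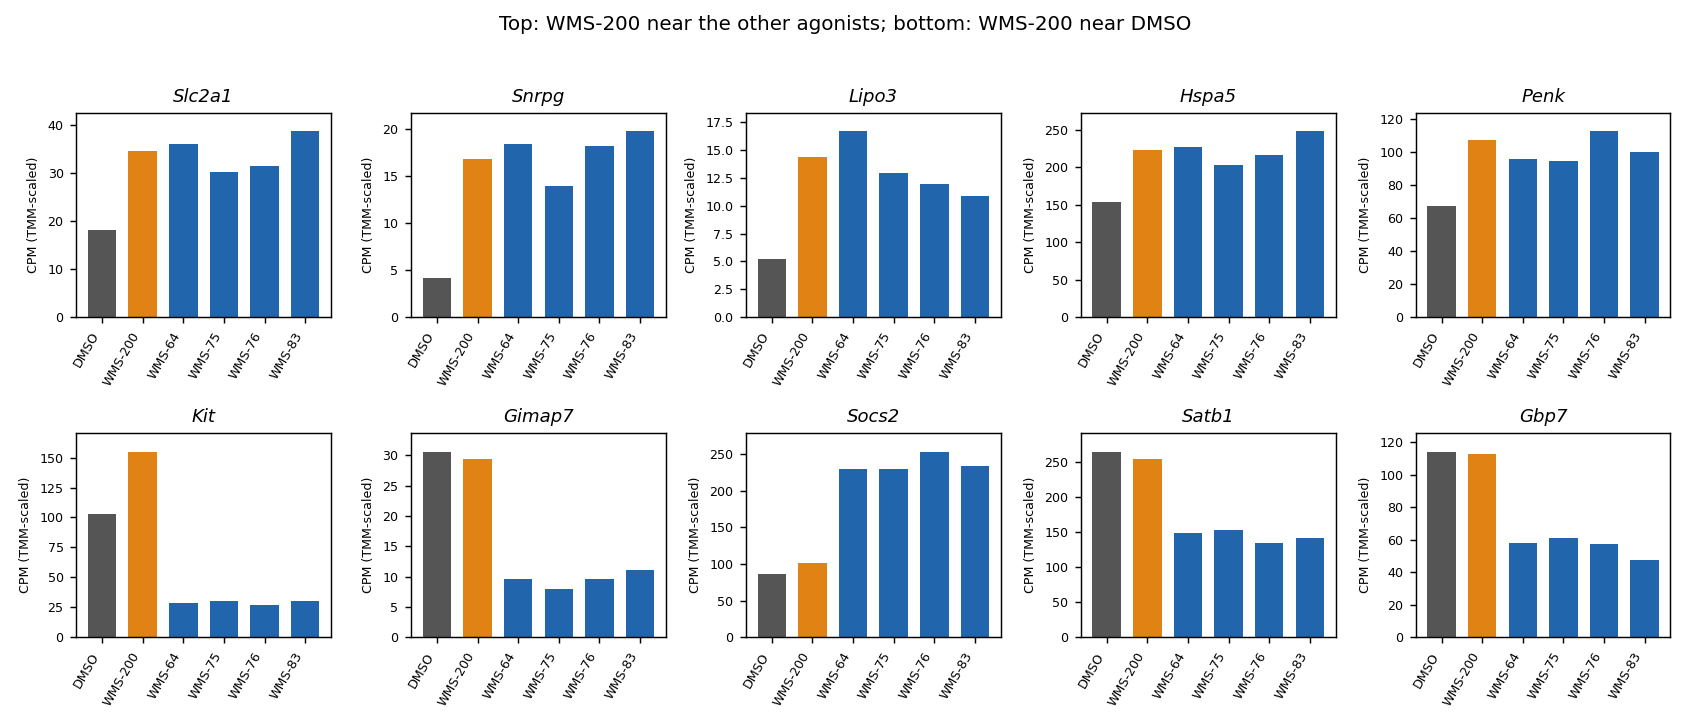
Bars are TMM-scaled CPM of 1 library each, colours as in the plot of the marker genes. In the top row WMS-200 lies with the other agonists (Slc2a1 at 34.5 CPM against 18.03 with DMSO); in the bottom row it lies with DMSO (Gimap7 at 29.3 against 30.6), or past it in Kit (155 against 103).

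Transcripts of the receptor the compounds are named for were not detected at this depth. Oprk1 had 0 counts in each of the 6 Treg libraries, which allows up to 0.136 to 0.160 CPM (3 counts per library, counting error alone), and Pdyn had 0 counts as well. Penk, which encodes the enkephalin peptides that act on other opioid receptors, had 67.1 CPM under DMSO, 107 under WMS-200, 95.8 under WMS-64, 94.7 under WMS-75, 112 under WMS-76 and 100.2 under WMS-83. All agonist libraries lay above DMSO and WMS-200 was inside the range of the other 4 (0.60 ± 0.14, adjusted p = 0.00723). Oprm1, the mu opioid receptor, had 59 counts with DMSO, 43 with WMS-200 and 4 to 25 with the other 4, and did not pass (-1.66, adjusted p = 0.228). Cd4 (0.12, adjusted p = 0.596), Cd3e (-0.19, adjusted p = 0.332) and Malat1, a nuclear RNA (-0.73, adjusted p = 0.486), did not pass either. Malat1 was lowest with WMS-83, at 442 CPM against 1280 with DMSO. Among genes of the Y chromosome, Uty fell by 0.51 on the log2 scale (adjusted p = 0.0265) and Ddx3y did not pass (-0.24, adjusted p = 0.214). All 4 sex-linked genes tested lay below DMSO in each of the 5 agonist libraries, as did 19.7% of all genes tested.

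In the other cell types the same contrast gave few calls. Agonists against DMSO passed for 0 genes in Th1 (517 at an unadjusted p below 0.05), 6 in Th17 (0.0378%) and 1 in CD8 (0.0063%), in the same fit and with the same number of libraries. The Treg effect differed from the mean effect of the other 3 in 881 genes (5.55%), 773 with a higher (4.87%) and 108 with a lower (0.68%) Treg effect, and 840 of the 881 were also called in Treg. The title of the WMS-83 library counted as Th1 reads Th17, while its cell type label and column name say Th1. All Th1 libraries share a WT number, as do all CD8 libraries. In Th17 the DMSO library carries the number 2, 4 agonists the number 1 and WMS-83 the number 3, so DMSO shares its number with no agonist, and the 6 calls above were made there. In Treg the number divides DMSO and WMS-200 from the other 4, and for those 4 compound and number cannot be told apart.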

How the data were processed

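The values are raw read counts per gene deposited by the authors, and the submitters' processing notes name the tools HISAT2, featureCounts and fastp. Neither tool versions nor strand setting, annotation or genome build is given in the sources used here. Without a known strand setting, reads of overlapping genes cannot be told apart.

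edgeR 4.0.16 in R 4.3.3 was fitted to all 24 libraries, with TMM scaling, genes kept by filterByExpr within cell type at a minimum count of 10 (15885 of 56748), and robust quasi-likelihood tests adjusted by Benjamini and Hochberg at 0.05. The agonists against DMSO came from 8 group means (16 residual degrees of freedom), and the comparisons with WMS-200 from 9 (15). The 5 agonists served as each other's replicates, and a lone library was assumed to vary like the others, so p-values measure the spread between these libraries, which may be technical. Log2 CPM values used a prior count of 2, as did the single-library differences, list medians per library, counts past a fold and positions drawn from them. Log2 fold changes given with adjusted p-values came from the fitted model instead. Standard errors come from the quasi-likelihood fit and so include that spread, while floors cover counting error alone.

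Members and gene lists were chosen with earlier results of these data known. Genes were named by 5 rules, namely the 4 markers, the 12 largest rises and falls at a mean log2 CPM of at least 2, up to 4 called members of a list with its defining members, and the 6 smallest p for WMS-200 against DMSO and for the other 4 against WMS-200. The alternatives were RLE size factors, DESeq2 1.42.0, limma-voom 3.58.1, 3 filters, length offsets, sample subsets, the WT number as block and each library left out. Some genes that these rules name are not reported here. RefSeq promoters are of GRCm38.p6.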

Additional observations from a re-analysis of the deposited data

Results flagged for a closer look

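For 22 of the 80 genes named in the text, the WMS-200 library stood apart from the other 4 agonist libraries by Dixon's test at the 95% level, and no other agonist library stood apart for any of the 80. Chance flags about 1 in 20 groups, but some of these genes were named because WMS-200 differed in them from DMSO or from the other 4, so the number of them is a description and no test. In CPM, WMS-200 was the low library in C3 (3.49), Mical2 (4.35), Zfp608 (5.89), Emp1 (3.40), Ctla4 (243), Lrrc32 (29.7), Tnfrsf18 (193), Socs2 (101) and Rrm2 (81.6). It was the high library in Matk (103), Gbp10 (87.1), Atp10d (59.1), Gbp9 (155), Ikzf2 (1103), Itgae (686), Gbp4 (379), Gbp7 (113), Igtp (584), Pus7l (12.8), Kit (155), Gimap7 (29.3) and Satb1 (254). The total count of WMS-75, 15409985, also stood apart from the other 4 agonist libraries.

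The agonist effect differed between Treg and the mean of the other 3 cell types in 881 genes by the interaction test of edgeR. Of the named genes, 47 passed. The log2 difference of effects was 1.08 for Il2ra, 0.79 for Egr3, 0.92 for Slc2a1, 2.07 for Csf2, 3.83 for C3, 3.23 for Mical2, 2.20 for Hmgn2-ps, 2.13 for Snrpg, 2.29 for Zfp608, 2.15 for Smpdl3b, 1.90 for Fam20a, 1.83 for Lrrc49, 1.60 for Gcsh, 1.93 for Hspa1a, 1.28 for Lrrc32, 1.35 for Socs2, 0.87 for Myc, 0.60 for Irf4, 1.196 for Lta, 0.97 for Tnf and 0.66 for Lif. It was also 0.95 for Maf, 1.28 for Ccr4, 0.87 for Bcl2l1, 0.52 for Ccnd2, 0.66 for Hmgcs1, 1.02 for Hsd17b7, 0.83 for Pgk1, 0.68 for Atp5b, 1.17 for Rrm2, 0.87 for Mcm5, 0.77 for Dkc1, 0.70 for Nolc1, 0.55 for Hspa5, 0.91 for Manf, 0.83 for Hsp90ab1, 0.78 for Hsph1, 1.29 for Lipo3, 1.07 for Rrp15 and 0.99 for Penk. A difference of effects is also larger where a gene was lower with agonists in another cell type. For Penk the effect was 0.60 in Treg, 0.01 in Th1, -1.11 in Th17 and -0.06 in CD8. For Csf2 it was 1.64 in Treg, -0.10 in Th1, -0.75 in Th17 and -0.46 in CD8. The effect was lower in Treg for Bsn (-1.38), Jag2 (-1.09), Cage1 (-1.197), Atp10d (-1.14), Slc2a3 (-0.63), Ndrg1 (-0.62) and Vegfa (-0.76). The part of the WT number in these differences was not tested, since for 4 of the 5 Treg agonists it goes with the compound. The number is shared by all Th1 and all CD8 libraries, while in Th17 the DMSO library shares it with no agonist and 6 genes passed for the agonists against DMSO.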

How the results depend on the processing

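The count of 1401 genes for the 5 agonists against DMSO was within 1.5 times under RLE size factors, DESeq2, limma-voom, every filter on low counts, protein-coding genes alone, gene length offsets and without the Th17 libraries. It was 4 with the 6 Treg libraries alone, and 930 to 2576 when each agonist library was left out, lowest without WMS-83 and highest without WMS-200. With the WT number as a replicate block, 17 genes passed, and 10 for the Treg effect against the other cell types; this block compares WMS-200 with DMSO only, and the labels do not say that the number pairs libraries. Under the block the fold changes of Itgae (0.074), Ctla4 (-0.017), Kit (0.59) and Cd4 (-0.014) turned sign. The 881 genes for the Treg effect were 524 with RLE size factors, 364 with limma-voom, 1416 with every counted gene, 561 with length offsets, and 543 to 2086 with a library left out. The 21 genes for WMS-200 alone were 0 with RLE size factors, limma-voom or length offsets, 59 with DESeq2, 72 with every counted gene, 5 with the Treg libraries alone, 32 without the Th17 libraries, and 7 to 27 with another agonist library left out. In its place WMS-83 gave 2470, WMS-64 2225, WMS-76 1083 and WMS-75 908. The 1233 genes of the other 4 against WMS-200 were 657 with the Treg libraries alone. The counts past 2-fold became 789, 504, 469, 643 and 490 at 3-fold for WMS-83, WMS-76, WMS-75, WMS-64 and WMS-200, and 573, 277, 272, 491 and 74 at a mean log2 CPM of at least 2. The cause of these changes was not tested. The fits of WMS-200 without its own library, and of the interaction with Treg alone, could not be made. Of 1197 values of named genes under these settings, 1003 stayed on their side of the threshold in the same direction, 174 missed it, 16 newly passed and 4 turned sign. The misses were not spread evenly over the settings. With the 6 Treg libraries alone, 65 of 79 named genes lost their call. Under the WT number block 60 of 80 lost it, and all 4 changes of sign were there. Of the 4 markers, Il2ra, Egr3 and Csf2 lost their call with the Treg libraries alone and under the block, and Slc2a1 with the Treg libraries alone. With those 2 settings aside, the other named genes that lost a call under at least 1 setting were Bsn, C3, Emp1, Fsd1l, Gbp10, Gbp7, Gbp9, Hspa1a, Mical2, Ndrg1, Pdk1, Pus7l, Smpdl3b, Snrpg, Tnfrsf18 and Zfp608. With 1 library a treatment, the lone libraries are assumed to vary like the others, and genes of few reads limit the counts past a fold.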
